A study of Mus musculus with 2 samples.

Results

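Translation initiation factors are the proteins that bring the initiator tRNA, the small ribosomal subunit and an mRNA together and set the ribosome on a start codon. They were followed here in sorted mouse hair follicle cells as every probe set annotated to 1 gene whose symbol begins with Eif and a digit, with the sex-chromosome pair Eif2s3x and Eif2s3y left out. The rule used no measured value. It gave 128 of the 45101 probe sets of the array and 45 of 18193 genes. Of the 45 genes, 44 were measured, meaning that the brightest of their probe sets reached a signal of 57.8 on at least 1 array. The 45th was Eif4a3, a helicase of the exon junction complex, whose only probe set with 1 gene symbol had a signal of 19.2 in early bulge cells and 4.52 in outer root sheath cells. The genes Eif1, Eif2s1, Eif3g, Eif4g1, Eif3j1 and Eif4ebp3 gave no probe set under this rule and were not analysed here, so the core complexes are described in part.

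RNA had been taken from back skin follicles of CD-1 pups at postnatal day 4 that carried both transgenes, K14-RFP and Sox9-EGFP, and was measured on 1 Affymetrix array per population. The early bulge cells were bright for GFP and for RFP. The bulge holds the stem cells of the follicle, and Sox9 is a transcription factor of these cells. The non-bulge outer root sheath (ORS) cells were negative for GFP and bright for RFP, which follows the promoter of keratin 14, a keratin of basal keratinocytes. Strain, age, genotype and the exclusion of dead and of large differentiated cells were common to both groups, and how many pups were pooled for an array is not stated. With 1 array per population there is no replicate error and no test, so every difference below compares these 2 arrays. Values are MAS5 signals, the authors' linear intensities per probe set, and a ratio is the early bulge signal over the ORS signal on the log2 scale. A gene is shown by its brightest probe set, and its other probe sets give a view of technical spread only.

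Initiation runs through a series of complexes. eIF2 carries the initiator tRNA as a ternary complex with GTP, eIF2B recharges eIF2 with GTP, eIF3 holds the small subunit, eIF4F (the cap-binding eIF4E, the helicase eIF4A and the scaffold eIF4G) recruits the mRNA through its cap, eIF1 and eIF1A guide scanning, and eIF5 and eIF5B complete start-site selection and subunit joining. Stress kinases that phosphorylate eIF2 and the eIF4E-binding proteins, which mTORC1 phosphorylates, are the main brakes. Quiescent stem cells of the adult follicle are known for a low rate of protein synthesis compared with their dividing progeny.

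The arrays set the frame for these values. The median signal of all probe sets was 102 in early bulge and 88.0 in ORS, and 62.0% and 58.0% of the non-control probe sets reached the floor of 57.8. Sox9, the gene of the green reporter, had a signal of 4061 in early bulge against 676 in ORS, and all 6 markers of follicle epithelium (Sox9, Krt14, Krt5, Trp63, Itga6 and Itgb4) were brighter in early bulge, with a summed signal of 66060 against 38770. Of 14 dermal fibroblast markers, 12 were brighter in ORS by 2-fold or more and 1, Fbln2, in early bulge, and their summed signal was 8607 in early bulge and 66908 in ORS. Pdgfra, which defines these cells, had a signal of 11.3 in early bulge, below the floor, and 738 in ORS. All 15 measured proliferation markers had the lower signal in early bulge (summed signal 66926 against 98754), and all 8 markers of sebocytes and the upper follicle had the higher one (42289 against 5204). The immune markers Ptprc and Cd3e and the endothelial markers Pecam1 and Cdh5 were below the floor on both arrays. The other endothelial marker, Kdr, had 18.0 in early bulge, below the floor, and 76.6 in ORS. The 4 immune markers together, of which 2 were measured, summed to 269.9 in early bulge and 243 in ORS. Of 5 melanocyte markers, 2 had the higher signal in early bulge and 3 in ORS. Among the latter, Kit had 121 in early bulge and 860 in ORS. These marker lists move with the comparison, and their part in the ratios of the initiation factors was not tested. In sorted pools such as these, fewer cells of a type and less RNA per cell cannot be told apart.

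Initiation factor mRNAs had nearly the same signals in both populations, with a small lean towards the ORS array. Of the 44 measured genes, 43 (97.7%) were less than 2-fold apart, as were 87.9% of all measured genes. None was at least 2-fold higher in early bulge, where the share over all 13252 measured genes was 7.3%, and 1, Eif4e3, was at least 2-fold higher in ORS, where that share was 4.78%. Over all measured genes, 968 were at least 2-fold higher in early bulge and 634 in ORS, and after median centring of the arrays these were 707 and 1017. At any size, 12 members had the higher signal in early bulge and 32 in ORS, against 53% of all measured genes with the higher signal in early bulge. Past 1.5-fold, a limit chosen after seeing the data, 4 members were higher in ORS (12.8% of all measured genes) and none in early bulge (17.1%). The median log2 ratio of the members was -0.23 (interquartile range -0.33 to 0.01, lowest -1.89, highest 0.27), beside 0.04 for all measured genes. The members were bright, with a median signal of 2893 over both arrays in place of 515 for all measured genes, so they were also set beside the 3143 measured genes with mean signals between their own quartiles of 1308 and 7021. Those genes had a median log2 ratio of -0.10, 40.9% of them had the higher signal in early bulge and 92.1% were less than 2-fold apart.

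**Figure D1:**
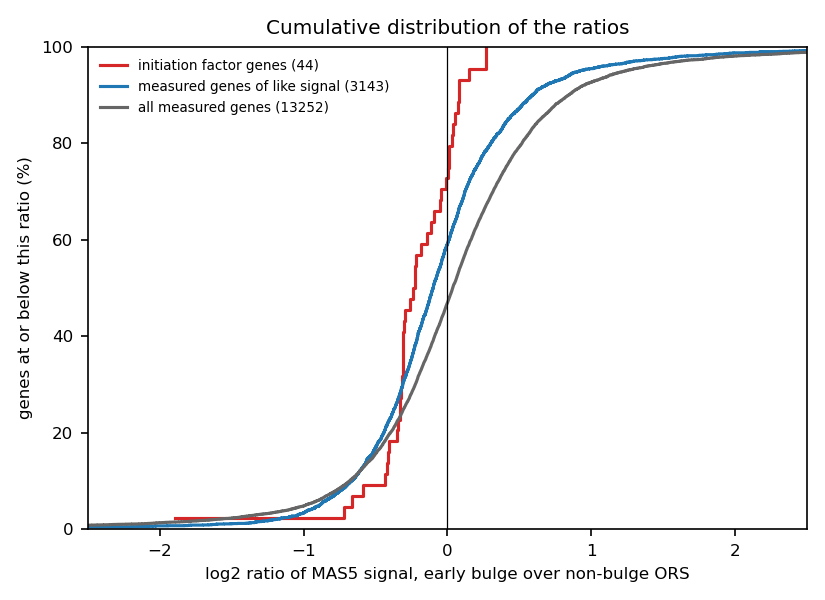
Cumulative share of genes (vertical axis, percent) at or below each log2 ratio of early bulge over ORS signal (horizontal axis) for 44 initiation factor genes, 3143 measured genes of like signal and all 13252 measured genes. The initiation factor curve is steep, with a median of -0.23, 32 of 44 genes left of 0, a lowest value of -1.89 and its end at 0.27.

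Among the 11 brightest members, with mean signals of 7021 to 21492, 6 had the higher signal in early bulge and 5 in ORS, with a median log2 ratio of 0.01 and a range of -0.29 to 0.08. The 537 measured genes in that range had a median of 0.03. In each of the 3 lower quartiles of mean signal, 9 of 11 members had the higher signal in ORS, and the medians from the dimmest quartile upwards were -0.31, -0.23 and -0.33. The medians of all measured genes in the same ranges were 0.03, -0.12 and -0.07. The 6 members with signals over 10000 on both arrays (Eif3e, Eif3f, Eif3i, Eif4g2, Eif4h and Eif5a) had ratios between -0.15 and 0.08. The balance among the brightest genes depended on the scaling. With loess scaling 6 of the 11 brightest again had the higher signal in early bulge, but after quantile normalization it was 1 of 11 and after median centring 0 of 11. The 6 genes over 10000 all lay below 0 under these last scalings, from -0.25 to -0.06 and from -0.36 to -0.14.

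**Figure D2:**
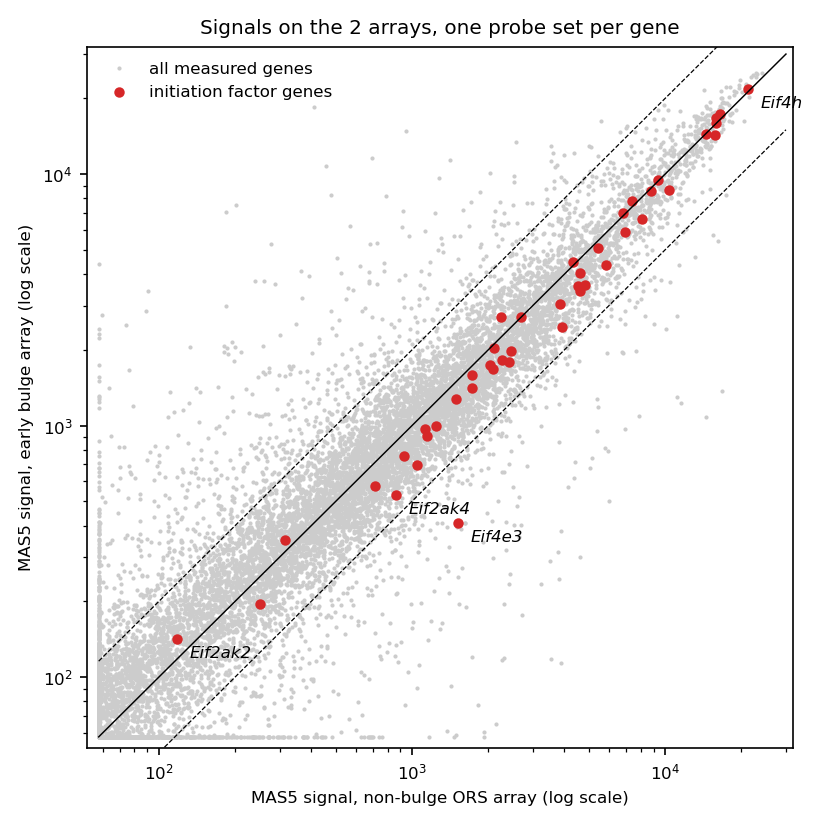
MAS5 signals of the early bulge array (vertical, log scale) against those of the ORS array (horizontal, log scale), with 1 probe set per gene and signals below 57.8 drawn at 57.8. Solid and dashed lines mark equal signals and 2-fold differences. The initiation factors (red) follow the line of equal signals, and Eif4e3, at 409 and 1519.6, is the only one past 2-fold.

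Probe sets of the same gene bound how finely these ratios can be read. Of 32 members with several measured probe sets, 13 had every probe set on the same side of 0, 11 lower and 2 higher in early bulge, and 19 had probe sets on both sides of 0. Over 133 pairs of probe sets of the same member, both above the floor on both arrays, the root mean square difference in log2 ratio was 0.41, which exceeds most members' own ratios. Of the 128 probe sets, 117 were measured, and 1 of these was at least 2-fold higher in early bulge (6.75% over all measured probe sets with 1 gene) and 3 in ORS (4.44%). Scaling matters as well. On the arrays as deposited and after median centring, quantile normalization and loess scaling alike, 31 of the 44 genes had the lower signal in early bulge and 2, Eif4e and Eif2ak2, the higher one, while 11 changed sign with the scaling.

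**Figure D3:**
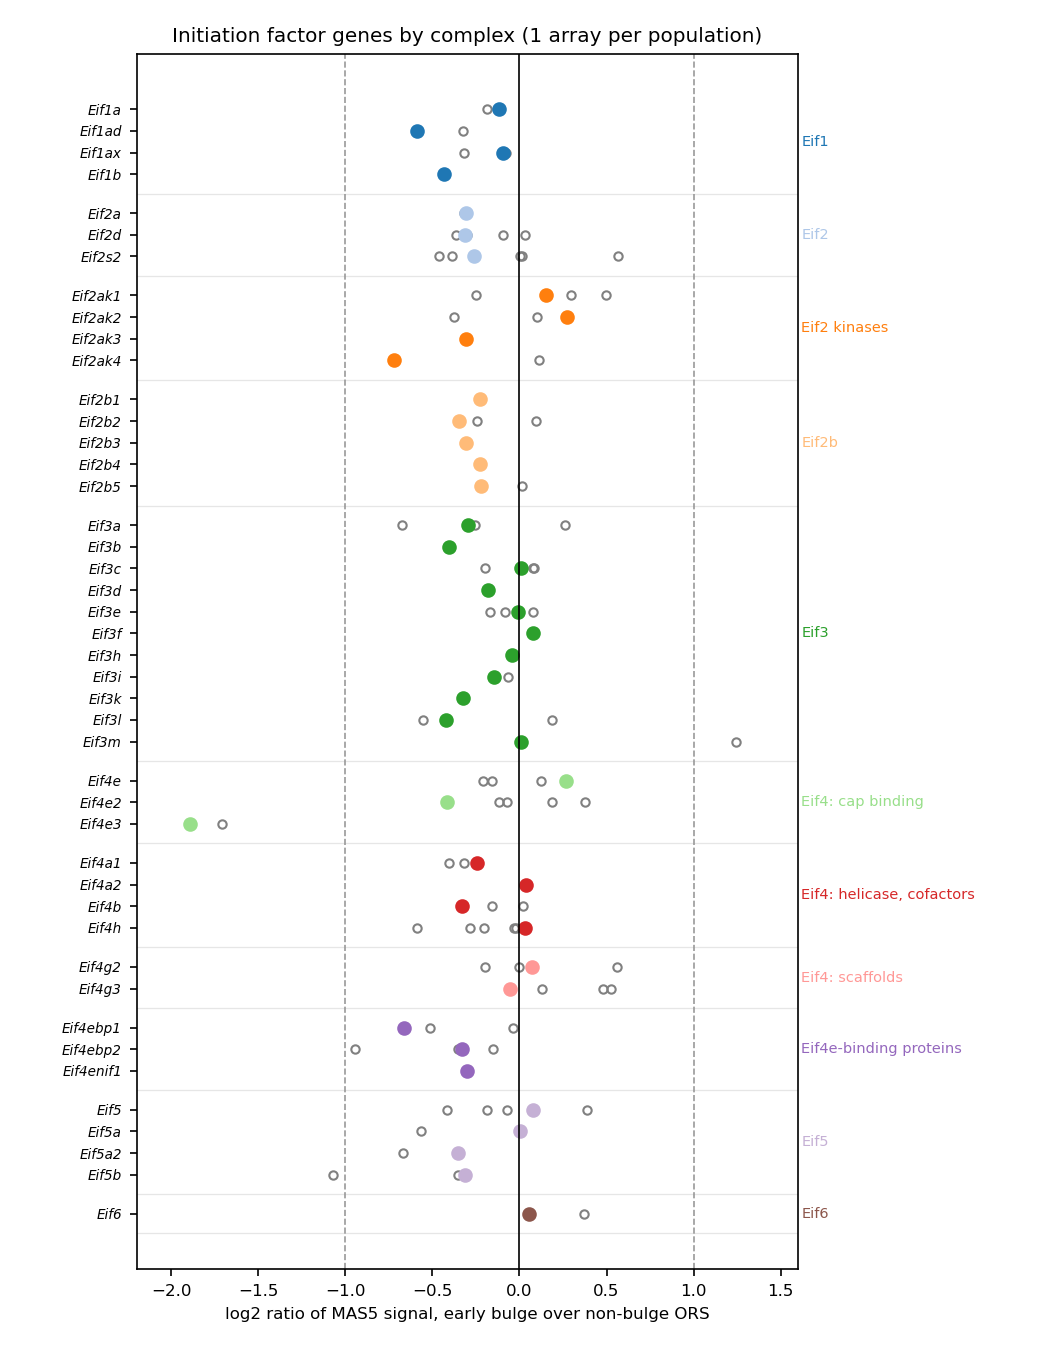
Log2 ratio of MAS5 signal, early bulge over ORS (horizontal), for the 44 measured initiation factor genes grouped by complex. Filled points are the brightest probe set of each gene, open points its other measured probe sets, and dashed lines mark 2-fold. Eif4e3 lies at -1.89 with its second probe set at -1.71, and the 5 Eif2b genes lie between -0.35 and -0.22.

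The Eif1 group, set by gene symbol, had lower signals in early bulge in 4 of 4 genes, with a median log2 ratio of -0.27. Eif1b, a close relative of eIF1, had a signal of 1794 in early bulge and 2422 in ORS (log2 ratio -0.43). Eif1ad, which encodes a protein with an eIF1A-type domain, had 696 and 1047 (-0.59, just past 1.5-fold), and its other probe set gave -0.32. Eif1b had only 1 probe set, while both of the 2 probe sets of Eif1ad were below 0. The eIF1A genes, Eif1ax on the X chromosome and its close relative Eif1a, differed less. Eif1ax had signals of 5087 in early bulge and 5434 in ORS (-0.10), and Eif1a had 1588 and 1720.9 (-0.12), and all their probe sets were below 0. Near-identical copies can share probes, so these last ratios are uncertain as values of single genes.

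The eIF2 group, also set by gene symbol, had the lower signal in early bulge in 3 of 3 genes, as had 32 of all 44 members. The median of the group was -0.31, and only Eif2s2 in it encodes a subunit of eIF2 itself. Eif2s2, the beta subunit of eIF2, had a signal of 8609 in early bulge and 10321 in ORS (-0.26). Its 5 other probe sets ran from -0.46 to 0.57, so its probe sets did not share a direction. Eif2a encodes a separate single-chain factor that can deliver initiator tRNA, and is not the alpha subunit of eIF2. Its signals were 1684 in early bulge and 2085 in ORS (-0.31), with a second measured probe set at -0.32. Eif2d, which acts in ribosome recycling and in initiation outside the usual route, had 1979.7 and 2457 (-0.31), and its 4 other measured probe sets ran from -0.36 to 0.03. The mean over all probe sets, including dim ones, turned the ratio of Eif2a to 0.25.

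The 4 kinases that phosphorylate eIF2 did not share a direction. Eif2ak4, which encodes GCN2, the sensor of amino acid shortage, had a signal of 527 in early bulge and 868 in ORS, the largest difference of the group (-0.72, 1.65-fold). A dim probe set of this gene gave 0.11, with signals of 74.8 and 69.1. Eif2ak3, which encodes PERK, the sensor of the endoplasmic reticulum, had 754 and 933 (-0.31) on its only measured probe set. Eif2ak1, the heme-regulated kinase HRI, had 350.2 and 316 (0.15), with other probe sets from -0.25 to 0.50. Eif2ak2, which encodes the double-stranded RNA sensor PKR, was dim, with 142 and 118 (0.27) and other probe sets at 0.10 and -0.37. None of the 4 reached 2-fold, and the signals of Eif2ak4 are the only ones of the group past 1.5-fold.

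All 5 subunits of eIF2B, the exchange factor that phosphorylated eIF2 blocks, had the lower signal in early bulge by a similar and small amount. Eif2b1, the alpha subunit, had 1277 in early bulge and 1492 in ORS (-0.23). Eif2b2, the beta subunit, had 3032 and 3853 (-0.35). Eif2b3, the gamma subunit, had 574 and 711 (-0.31). Ratios of this size were not particular to eIF2B, because 16 of the 44 measured members lay between -0.35 and -0.21. Eif2b4, the delta subunit, had 1743 in early bulge and 2037 in ORS (-0.23). Eif2b5, the catalytic epsilon subunit, had 966 and 1125 (-0.22). The 5 ratios had an SD of 0.06 over genes and a median of -0.23, and each stayed below 0 under the 3 other scalings. Dimmer probe sets of Eif2b2 and Eif2b5 gave 0.10 and 0.01.

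Promoter sequence was set beside these groups because genes of the translation machinery are known targets of Myc, which binds the E-box, and of ETS factors. The RefSeq promoter table (GRCm38.p6) holds windows of 300 bases, 250 before and 50 after a gene start, for 36 of the 45 members. It has no entry for Eif1a, Eif2b3, Eif3e, Eif3h, Eif3i, Eif4e3, Eif4ebp1, Eif4g2 and Eif6. The motifs searched, on both strands, were the E-box CACGTG, which reads the same on either strand, and the ETS motif CCGGAAGT; the 2 do not overlap in any window printed here. The E-box was found in 11 of 49 windows of members (22.4%), against 9.54% of the windows of measured genes and 7.15% of all windows. The ETS motif was in 10 of 49 (20.4%), against 7.23% and 3.89%. Counted by gene, 9 of the 36 members held an E-box (25%, against 11.4% of measured genes with a window) and 8 an ETS motif (22.2%, against 8.32%). Some members have several overlapping windows, and the median GC content was 62.7% in the members' windows, 60.3% in those of measured genes and 52.7% in all. Members with an E-box had a median log2 ratio of -0.24 (9 genes) and those without -0.28 (26 measured genes). For the ETS motif the medians were -0.29 (8 genes) and -0.26 (27 genes), and 2 of 8 and 8 of 27 genes had the higher signal in early bulge. For the E-box these counts were 4 of 9 genes with it and 6 of 26 without.

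The Eif2b2 and Eif2b4 windows carry the ETS motif just after the gene start, and are printed in lower case, 5′ to 3′ on the strand of the gene, with the motif in capitals. The windows of Eif2b1 and Eif2b5 hold neither motif, and Eif2b3 has no window, so the motif is not shared by the complex. The window of Eif2b2 lies at chr12:85219231-85219530 on the plus strand, and that of Eif2b4 at chr5:31193090-31193389 on the minus strand.
Eif2b2: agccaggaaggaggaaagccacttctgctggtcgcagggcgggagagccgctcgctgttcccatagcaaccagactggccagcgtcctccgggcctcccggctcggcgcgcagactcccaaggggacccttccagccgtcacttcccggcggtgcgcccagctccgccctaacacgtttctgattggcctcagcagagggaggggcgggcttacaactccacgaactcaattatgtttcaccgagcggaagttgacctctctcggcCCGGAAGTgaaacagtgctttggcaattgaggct
Eif2b4: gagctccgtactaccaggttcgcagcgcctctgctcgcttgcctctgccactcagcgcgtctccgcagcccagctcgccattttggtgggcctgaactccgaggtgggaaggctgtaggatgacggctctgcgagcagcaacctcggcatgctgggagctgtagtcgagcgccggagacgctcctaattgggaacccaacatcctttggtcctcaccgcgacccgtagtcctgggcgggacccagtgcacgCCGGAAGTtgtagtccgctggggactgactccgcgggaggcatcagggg
The window of Eif2ak4, the kinase gene with the largest difference, holds neither motif. It is the first of 2 windows of this gene and lies at chr2:118388367-118388666 on the plus strand.
Eif2ak4: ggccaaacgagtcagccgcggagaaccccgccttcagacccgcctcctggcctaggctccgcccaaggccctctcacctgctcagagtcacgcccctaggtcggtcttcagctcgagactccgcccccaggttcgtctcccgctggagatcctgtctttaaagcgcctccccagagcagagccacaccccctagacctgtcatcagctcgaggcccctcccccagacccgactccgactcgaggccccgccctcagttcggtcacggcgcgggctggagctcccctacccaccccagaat

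eIF3 was represented by 11 subunits, which ranged from near-equal signals to 1.34-fold lower ones in early bulge. The median log2 ratio was -0.15, with 3 subunits higher in early bulge and 8 in ORS. The scaffold subunits Eif3a and Eif3b, on which the complex is built, had signals of 6626 and 3634 in early bulge, against 8125 and 4818 in ORS (-0.29 and -0.41). Their partner Eif3c had 9462 and 9398 (0.01), with other probe sets from -0.20 to 0.08. Eif3d, a subunit that can itself bind the cap of selected mRNAs, had 4048 and 4591 (-0.18), and Eif3i had 14243 and 15759 (-0.15). The largest ratio of the complex was that of Eif3l, with 4353 in early bulge and 5825 in ORS (-0.42), and its neighbour in the complex, Eif3k, had 1816 and 2271 (-0.32). Other probe sets of Eif3a ran from -0.67 to 0.26 and those of Eif3l from -0.56 to 0.19.

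The remaining eIF3 subunits had ratios near 0. Eif3e had signals of 14376 in early bulge and 14476 in ORS (-0.01), with other probe sets from -0.17 to 0.08. Eif3h had 8561 and 8816 (-0.04), and Eif3m 2704 and 2691 (0.01). Eif3f, measured by 1 probe set, had 16773 and 15868 (0.08). Subunits e, f, h and m sit in the same core of the complex as k and l, whose ratios were lower. A dim probe set of Eif3m had a signal of 137 in early bulge and 34.4, below the floor, in ORS (at least 2.37-fold), which its brightest probe set does not show. It is the only member probe set at least 2-fold higher in early bulge. The promoter window of Eif3f, at chr7:108934165-108934464 on the plus strand, holds an E-box that begins 68 bases before the gene start, in capitals.
Eif3f: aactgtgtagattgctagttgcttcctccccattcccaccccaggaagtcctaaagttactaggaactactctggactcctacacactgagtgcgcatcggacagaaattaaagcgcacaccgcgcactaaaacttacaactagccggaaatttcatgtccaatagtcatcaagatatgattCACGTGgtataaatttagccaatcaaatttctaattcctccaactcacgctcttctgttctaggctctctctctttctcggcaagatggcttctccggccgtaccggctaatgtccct

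The eIF4E family held the clearest difference among all members. Eif4e3, a family member that binds the cap but not the usual eIF4E-binding proteins, had a signal of 409 in early bulge and 1519.6 in ORS, 3.72-fold lower in early bulge (log2 ratio -1.89). Its second probe set had 171 and 558, 3.27-fold lower (-1.71). Both probe sets lie above the floor on both arrays, carry no suffix that marks possible shared matches and give nearly the same ratio. Over the arrays as deposited and 8 other settings, the ratio ran from -2.11 to -1.76. Of 13252 measured genes, 194 (1.46%) had a ratio this low or lower. The fibroblast and proliferation markers given above were also higher on the ORS array, and their part in this difference was not tested.

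Eif4e, the main cap-binding protein, had a signal of 2708 in early bulge and 2246 in ORS (0.27). Another bright probe set of this gene had 1959.8 and 2268 (-0.21), so its probe sets disagree in direction. Eif4e2, a weak cap binder that represses selected mRNAs together with Gigyf2, had 3438 and 4587 (-0.42), with other probe sets from -0.12 to 0.38. Gigyf2 itself had 835 and 611 (0.45), with probe sets on both sides of 0. Neither Eif4e nor Eif4e2 came near the difference seen for Eif4e3.

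The proteins that bind eIF4E had lower signals in early bulge in 3 of 3 genes, with a median of -0.33. Eif4ebp1, which holds eIF4E away from the scaffold until mTORC1 phosphorylates it, had a signal of 2467 in early bulge and 3904 in ORS (-0.66, 1.58-fold). Its 2 other probe sets gave -0.51 and -0.03, the last from signals of 199.8 and 205. Eif4ebp2, the second inhibitor of this kind, had 909.7 and 1146 (-0.33), with all 4 of its measured probe sets below 0, from -0.95 to -0.15. Eif4enif1, which carries eIF4E into the nucleus and to processing bodies, had 1404 and 1730.1 (-0.30).

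**Figure D4:**
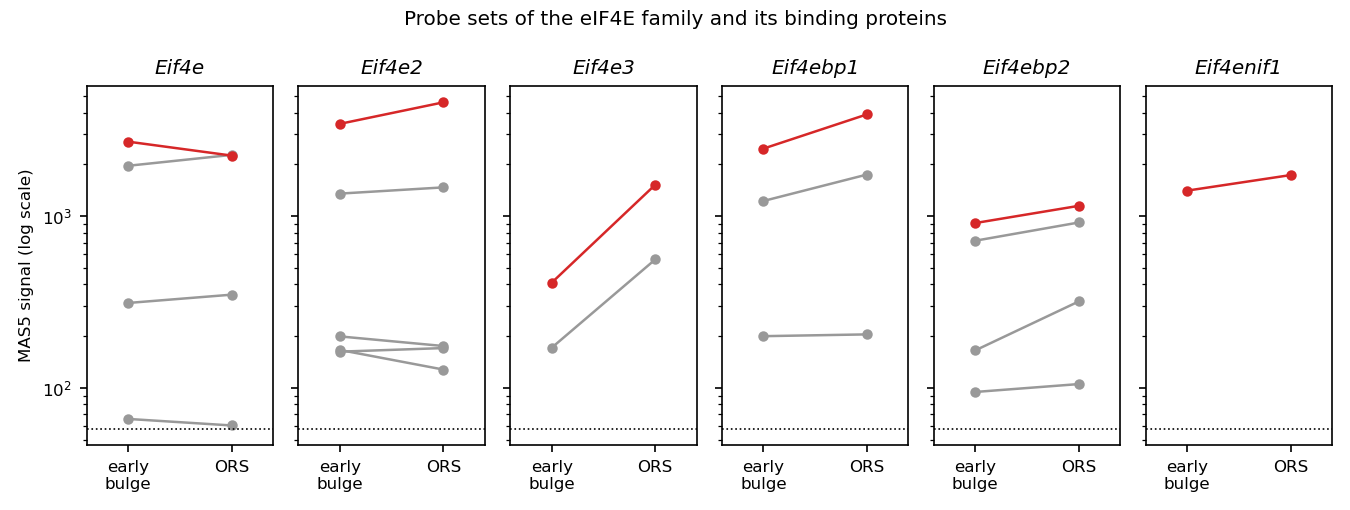
MAS5 signals (vertical, log scale) on the early bulge and ORS arrays for every measured probe set of the eIF4E family and its binding proteins, each line joining the values of 1 probe set. Red is the brightest probe set of a gene and the dotted line the floor of 57.8. Both Eif4e3 lines climb towards ORS, to 1519.6 and 558, while those of Eif4e and Eif4e2 run in both directions.

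Of the 4 measured genes of the helicase and its cofactors, 2 had the higher signal in early bulge and 2 in ORS, with a median of -0.10. Eif4a1, the main RNA helicase of initiation, had a signal of 5889 in early bulge and 6964 in ORS (-0.24), and its 2 other probe sets gave -0.40 and -0.32. Its close relative Eif4a2 had 7009.5 and 6829 (0.04). Eif4b, which stimulates the helicase, had 3601 and 4531 (-0.33), with other probe sets at -0.16 and 0.02. Eif4h, a related stimulating factor, had 21734 and 21252 (0.03), with 2 other bright probe sets at -0.03 and -0.02 and 3 dimmer ones from -0.59 to -0.20. Of the helicase genes, Eif4a1 had the lower signal in early bulge on all 3 of its probe sets. The promoter windows of Eif4a1 (chr11:69672374-69672673, minus strand) and Eif4h (chr5:134639360-134639659, minus strand) are shown because each holds an E-box, in capitals, beginning 189 and 96 bases before the gene start.
Eif4a1: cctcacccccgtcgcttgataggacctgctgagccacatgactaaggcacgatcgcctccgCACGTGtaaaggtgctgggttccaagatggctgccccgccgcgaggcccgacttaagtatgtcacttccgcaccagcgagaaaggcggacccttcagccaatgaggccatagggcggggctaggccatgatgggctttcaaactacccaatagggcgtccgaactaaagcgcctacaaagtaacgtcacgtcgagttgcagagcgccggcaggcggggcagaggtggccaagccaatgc
Eif4h: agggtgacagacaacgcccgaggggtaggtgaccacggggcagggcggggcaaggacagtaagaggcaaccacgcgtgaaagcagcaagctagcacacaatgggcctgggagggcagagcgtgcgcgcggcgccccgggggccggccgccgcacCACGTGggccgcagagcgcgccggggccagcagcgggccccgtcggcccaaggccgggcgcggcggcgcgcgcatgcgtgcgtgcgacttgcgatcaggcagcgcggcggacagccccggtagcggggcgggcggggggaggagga

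Both measured scaffolds had ratios close to 0. Eif4g2, also known as DAP5, which lacks the eIF4E-binding part of the classical scaffold, had a signal of 17272 in early bulge and 16424 in ORS (0.07), with other measured probe sets from -0.20 to 0.56. Eif4g3, a full-length scaffold, had 2032 and 2106 (-0.05), with 3 dim probe sets from 0.13 to 0.52. Over the whole eIF4 group of 12 genes, 4 had the higher signal in early bulge and 8 in ORS, with a median of -0.27.

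The factors eIF5, eIF5B, eIF5A and eIF6 gave ratios on both sides of 0. Eif5, which makes eIF2 hydrolyse its GTP at the start codon, had a signal of 7799 in early bulge and 7389 in ORS (0.08), with other probe sets from -0.42 to 0.39. Eif5b, the GTPase of subunit joining, had 997 and 1240.1 (-0.31), and its 2 other probe sets gave -0.35 and -1.07. The last of these was dim, with 63.3 and 133. All probe sets of Eif5b were thus lower in early bulge.

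Eif5a, the hypusine-carrying factor that helps ribosomes through difficult sequences, had 15963.5 in early bulge and 15907 in ORS (0.01) on its brightest probe set, whose suffix marks possible matches to other transcripts, and -0.57 on the other. Its dim relative Eif5a2 had 196 and 250.1 (-0.35), with a second probe set at -0.67. Eif6, which keeps the large ribosomal subunit from joining too early and is also known as a partner of integrin beta 4, had 4471 and 4313 (0.05) and a second probe set at 0.37. Itgb4, the integrin chain itself, had 1616 and 1005 (0.69).

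Other genes of translation gave a like picture, with single genes past 2-fold. Counts in these lists stand beside shares of 7.3% of all measured genes at least 2-fold higher in early bulge and 4.78% in ORS. Of 10 measured elongation and termination factors none was 2-fold apart, 2 had the higher signal in early bulge and 8 in ORS, and the median was -0.26. The elongation factors Eef1a1 and Eef2 were the 2 higher in early bulge (22256 and 13117, against 17346 and 10951 in ORS, ratios 0.36 and 0.26). Abce1, which splits ribosomes for a new round of initiation, had 1814 and 3319 (-0.87). Of 14 poly(A)-binding proteins and cofactors of initiation, 1 was at least 2-fold higher in ORS and none in early bulge, with a median of -0.07. It was Pabpc4, a cytoplasmic poly(A)-binding protein, with 967 in early bulge and 2000.1 in ORS (-1.05), and its other probe set gave -0.77. The main poly(A)-binding protein Pabpc1 had 17709 and 15742 (0.17).

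Of 17 measured genes of the mTORC1 pathway, the kinase complex that phosphorylates the eIF4E-binding proteins, 1 was at least 2-fold higher in each population and the median was -0.04. Ddit4, an inhibitor of mTORC1 induced by stress, had a signal of 2695 in early bulge and 1029 in ORS (1.39). Deptor, a protein that binds and restrains the mTOR kinase, had 772 and 2015 (-1.38), with other probe sets from -1.80 to -0.14. The kinase Mtor itself had 1775 and 2007 (-0.18), and its partner Rptor 999 and 1022 (-0.03). Ddit4 and Deptor therefore lay on opposite sides, while the core subunits Mtor and Rptor differed little. They are not the only regulators of the kinase in this list. Sesn1 had 5087 in early bulge and 2689 in ORS (0.92), short of 2-fold on its brightest probe set. Its 4 measured probe sets ran from 0.191 to 1.404, so the highest of them lay past 2-fold. Tsc1 and Tsc2 were slightly higher in early bulge (0.06 and 0.197), and Sesn2 and Akt1s1 slightly lower (-0.04 and -0.15).

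Genes known to respond when eIF2 is phosphorylated were higher in early bulge in part. Of 12 measured, 4 were at least 2-fold higher there (7.3% of all measured genes) and none in ORS (4.78%), with a median of 0.56, and after median centring the count was 2. Vldlr, a lipoprotein receptor, had 1221 in early bulge and 324 in ORS (1.91), and Trib3, a pseudokinase, had 373 and 155 (1.27). Both were shown by a probe set whose suffix marks possible shared matches. The 5 measured probe sets of Vldlr ran from 0.22 to 1.98, and the 2 of Trib3 from 1.04 to 1.27. The transcription factors Atf3 and Cebpb had 11766 and 3151 in early bulge, against 5424 and 1523 in ORS (1.12 and 1.05). At any size, 8 of the 12 had the higher signal in early bulge and 4 in ORS. Atf4, the factor at the head of this response, had 8300 and 7068 (0.23), with its other probe set at 0.53. Ddit3 and Ppp1r15a had ratios of 0.88 and 0.90, short of 2-fold, while the Atf4 targets Asns and Chac1 had -0.41 and -0.44. All 9 genes of the dissociation response list, immediate early and heat shock genes, also had the higher signal in early bulge, 1 of them by 2-fold (summed signal 128798 against 93121), and their part in these ratios was not tested.

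In the Myc family, whose proteins bind the E-box, Myc had a signal of 1566 in early bulge and 994 in ORS (0.66). Mycn had 1558 and 3567 (-1.20), with other probe sets up to 0.82, and Mycl had 58.7, just over the floor, and 1489 (-4.67). Of 8 measured family members, 1, the antagonist Mxd4 (1476 and 733, 1.01), was at least 2-fold higher in early bulge and 2 in ORS. The probe sets of Mxd4 ran from -0.0002 to 1.29. The members of the family thus lay on both sides. The smallest differences in the family were those of Mnt (-0.13) and Max (0.31). Initiation factors with an E-box in their window had ratios from -0.43 to 0.27, and those with a window but no E-box from -0.72 to 0.27.

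**Figure D5:**
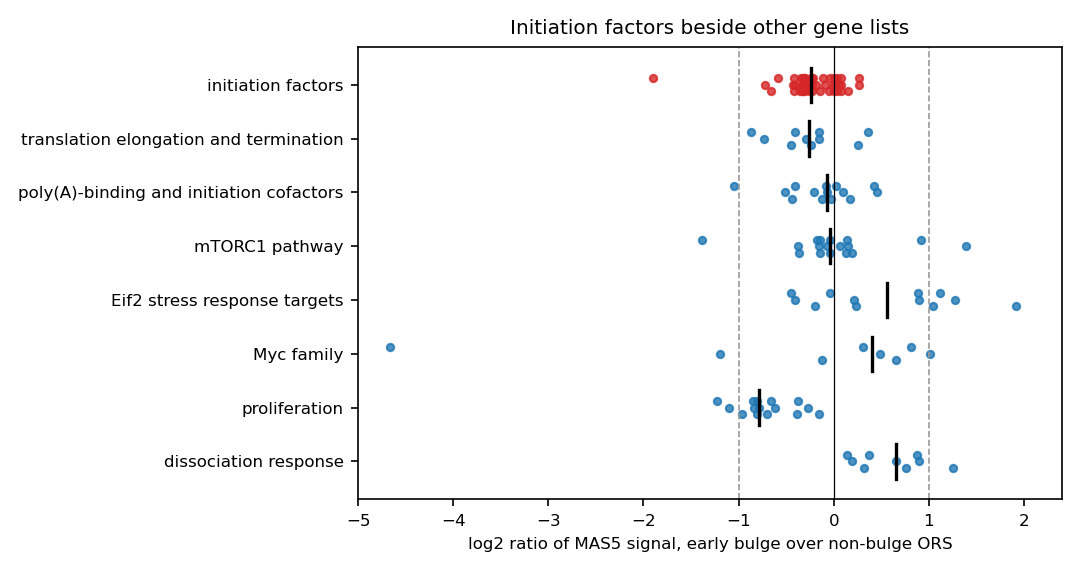
Log2 ratio of MAS5 signal, early bulge over ORS (horizontal), for each measured gene of the initiation factors and of 7 other lists. Points are genes, black bars medians and dashed lines 2-fold. The initiation factors have a median of -0.23, the proliferation markers -0.78 and the targets of the eIF2 stress response 0.56.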

How the data were processed

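The deposited values are linear signal intensities, 1 per probe set. The submitters' processing notes name MAS5 and Affymetrix Expression Console, without versions. The 2% trimmed mean was 500.0 on both arrays, so each had been scaled to one target, and a change shared by all transcripts cannot be seen. MAS5 subtracts mismatch signals, and its low values are noisy. Probe sets were named from the platform annotation. The 64 control probe sets, 932 with several symbols and 9160 with none were left out of gene counts. Each gene was represented by the probe set of highest mean log2 signal over both deposited arrays. A floor was set at 57.8, the 40th percentile of the signals without control probe sets. With 1 array per population no test was made, and genes were counted past 2-fold. The number of arrays limits the precision. All members were named by rule. The members, lists and settings were chosen with earlier results of these data known. Alternatives were median centring, quantile normalization, loess (span 0.4) and floors at the 20th and 60th percentile. Others were a pseudocount equal to the floor, the mean over probe sets, and only probe sets whose names lack the suffixes _s, _x and _a. Of these suffixes, _s and _x mark possible shared matches with other genes. The probe sets left out for _a include the brightest of Eif2ak4 and Eif4e2. A 1.5-fold limit was added after seeing the data. The procedure was tested on simulated arrays. Python 3.11.15, numpy 2.4.6 and pandas 2.3.3 were used.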

Additional observations from a re-analysis of the deposited data

Results flagged for a closer look

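Signals of initiation factors also appeared in probe sets that the annotation gives to several genes, and that the comparisons above do not use. Each of the following reached the floor of 57.8. The 3 probe sets shared by Eif3j1 and Eif3j2, copies of the loosely bound j subunit of eIF3, had signals of 816, 502 and 2973 in early bulge, against 1278, 884 and 4183 in ORS. Their log2 ratios were -0.65, -0.82 and -0.49, all lower in early bulge. The probe set shared by Eif4a3 and Gm5576 had 3591 in early bulge and 4247 in ORS (-0.24), far above the signals of 19.2 and 4.52 of the Eif4a3 probe set with 1 gene symbol. The probe set shared by Ankhd1 and Eif4ebp3 had 1697 and 1508 (0.17).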

How the results depend on the processing

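Over 8 alternative settings, Eif4e3 stayed at least 2-fold higher in ORS and the median log2 ratio of the members stayed below 0, between -0.45 and -0.16, and below that of all measured genes by between 0.20 and 0.29. Median centring moved the median of all measured genes to -0.17 and that of the members to -0.45, and left 2 members with the higher signal in early bulge. The mean over probe sets put 1 member, Eif3m, at least 2-fold higher in early bulge. Counting probe sets gave 1 higher in early bulge and 3 in ORS by at least 2-fold, and 38 of 117 higher in early bulge at any size. With a limit of 1.5-fold, chosen after seeing the data, 4 members were higher in ORS (Eif4e3, Eif2ak4, Eif4ebp1 and Eif1ad) and none in early bulge, against 12.8% and 17.1% of all measured genes. With the floor at the 20th percentile, 1870 genes in all were at least 2-fold higher in early bulge and 984 in ORS, in place of 968 and 634. Of 342 other values for single members, 335 moved by less than the spread between probe sets. Much of this count was fixed by the settings, so it is no measure of stability. The floors left the ratios of the brightest probe sets unchanged, and the suffix rule left those without a suffix unchanged. Median centring shifted every member by the same amount, which is less than that spread. Of 88 medians of single complexes, 25 moved by more than 0.1, 11 of them with median centring, whose common shift exceeds 0.1. The eIF2 group went to -0.03 and the cap-binding group to -0.01 with the mean over probe sets. The kinases reached 0.13 and the cap-binding group 0.19 with unsuffixed probe sets, and the helicase group 0.03 with the low floor. The scaffolds turned to -0.21 with median centring and -0.12 with unsuffixed probe sets, and Eif6 to -0.16 with median centring. The mean over probe sets gave -0.40 for the Eif5 group, and unsuffixed probe sets -0.43 for the Eif1 group. No cause was tested. Among the other lists, median centring put 1 elongation or termination factor past 2-fold in ORS and left 2 targets of the eIF2 stress response and 0 Myc family genes past it in early bulge. The pseudocount also left 0 Myc family genes there. The low floor put 1 initiation cofactor past 2-fold in early bulge. The mean over probe sets gave 1 elongation or termination factor and 2 mTORC1 genes in early bulge, and 0 cofactors and 0 Myc family genes in ORS. Unsuffixed probe sets gave 0 cofactors in ORS and 2 mTORC1 genes in early bulge. No paired analysis was possible because each population had 1 array, and no array could be left out.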
